A study of Canis lupus familiaris with 21 samples.

Results

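Cell division in canine cutaneous histiocytoma (CCH), a round cell tumor of the skin of young dogs, was followed through the mRNA of 45 cell cycle genes among the 21399 genes counted. The genes were taken by name, 20 of them known for DNA synthesis (S genes) and 25 for G2 and mitosis (G2/M genes), and each name matched 1 gene of the table. QuantSeq 3′ sequencing, which yields reads from the 3′ end of each polyadenylated transcript, had been applied to 21 formalin-fixed, paraffin-embedded samples. The samples came from dogs of various breeds that had received no experimental treatment. Group 1 held 5 stage 1 tumors rich in tumor cells (dogs of 0.5 to 5 years, with 1 age missing), and group 2a held tumor cell-rich areas of 5 stage 2 tumors (0.6 to 3 years). Group 2b held 6 samples of lymphocyte-rich areas of stage 2 tumors, 4 of them pools of 3 or 4 dogs and 2 of them from 1 dog each (17 dogs of 0.3 to 6 years, with 1 age missing). For the dog given here as 0.3 years old, the sample list of the study has 0.5 years. Group 3 held lymphocyte-rich areas of 5 stage 3 tumors (1.5 to 9 years). Stage is a histological grade of lymphocyte infiltration in tumors of different dogs, so the groups are not time points of 1 tumor. Per the study, the areas of groups 2a and 2b were punched out of their blocks and embedded anew. It does not describe this step for groups 1 and 3, so stage and sampling cannot be told apart in comparisons between stages.

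A cell that divides first copies its DNA in S phase and then separates the copies in mitosis. The S genes encode the helicase that opens origins of replication, the polymerases, clamp and clamp loader that copy the strands, and the enzymes that supply nucleotides. The G2/M genes encode the kinases and cyclins that start mitosis, the kinetochore and spindle proteins that move chromosomes, and the ubiquitin machinery that ends it. Their mRNA is made mainly in cells that cycle, which in CCH can be tumor cells, infiltrating lymphocytes or other cells of the tissue. In bulk tissue, fewer cycling cells and less mRNA per cycling cell cannot be told apart.

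Between 2113393 and 3559404 reads per sample fell on genes, and the 45 cell cycle genes took 2083 to 4527 CPM (counts scaled to a common library size). Of these genes, 42 were above 3 counts in every sample, and CCNB1 was the 1 gene too sparse to be tested. RNA quality differed between stages: the DV200, the percentage of RNA fragments over a set length, was 64.5 to 71.2 in group 1, 70.5 to 76.6 in group 2a, 72.5 to 76.9 in group 2b and 71.2 to 75.8 in group 3. The study also lists an RNA quality number for each sample, which was not used here. By that list, it was higher in every sample of group 2a than in all of group 2b. Of 10 T cell markers, CD4 was at 0 in every sample of groups 1 and 2a, in 4 of 6 of group 2b and in 4 of 5 of group 3. The summed level of all 10 was 58.6 to 2149 normalized counts in group 1, 511 to 1610.5 in group 2a, 3169 to 4577 in group 2b and 3613 to 5083 in group 3. Of 8 histiocyte markers, CD1A6 was at 0 in every sample of groups 1 and 3, in 4 of 5 of group 2a and in 4 of 6 of group 2b. The summed levels of all 8 overlapped among all groups (3900.3 to 7144). By the labels used here, the marker DLA-DRA averaged 44.2 normalized counts in group 1 and 130.1 in group 2a. The study's text gives these means with the 2 groups exchanged, and likewise those of DLA-DQA1 and DLA-DMA. Which assignment is right was not tested, and all comparisons with groups 1 and 2a follow the labels.

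Some samples stood apart from their groups across the cell cycle genes. Replicate 1 of group 2a was the lowest of its group for 34 of the 45 genes, replicate 1 of group 2b for 34 and replicate 3 of group 3 for 32, whereas replicate 5 of group 3 was the highest for 31. In group 1, replicate 4 was the lowest for 14 of the 25 G2/M genes. Counts of genes that passed, and the differences between the 2 phases, are also given without them. In groups 1, 2a and 3 every sample is a different dog, so that the p-values of group 2a against group 1 cover the spread between animals. Of the 6 samples of group 2b, 4 are pools, which average over dogs. The p-values of comparisons with group 2b therefore cover that spread only in part.

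**Figure D1:**
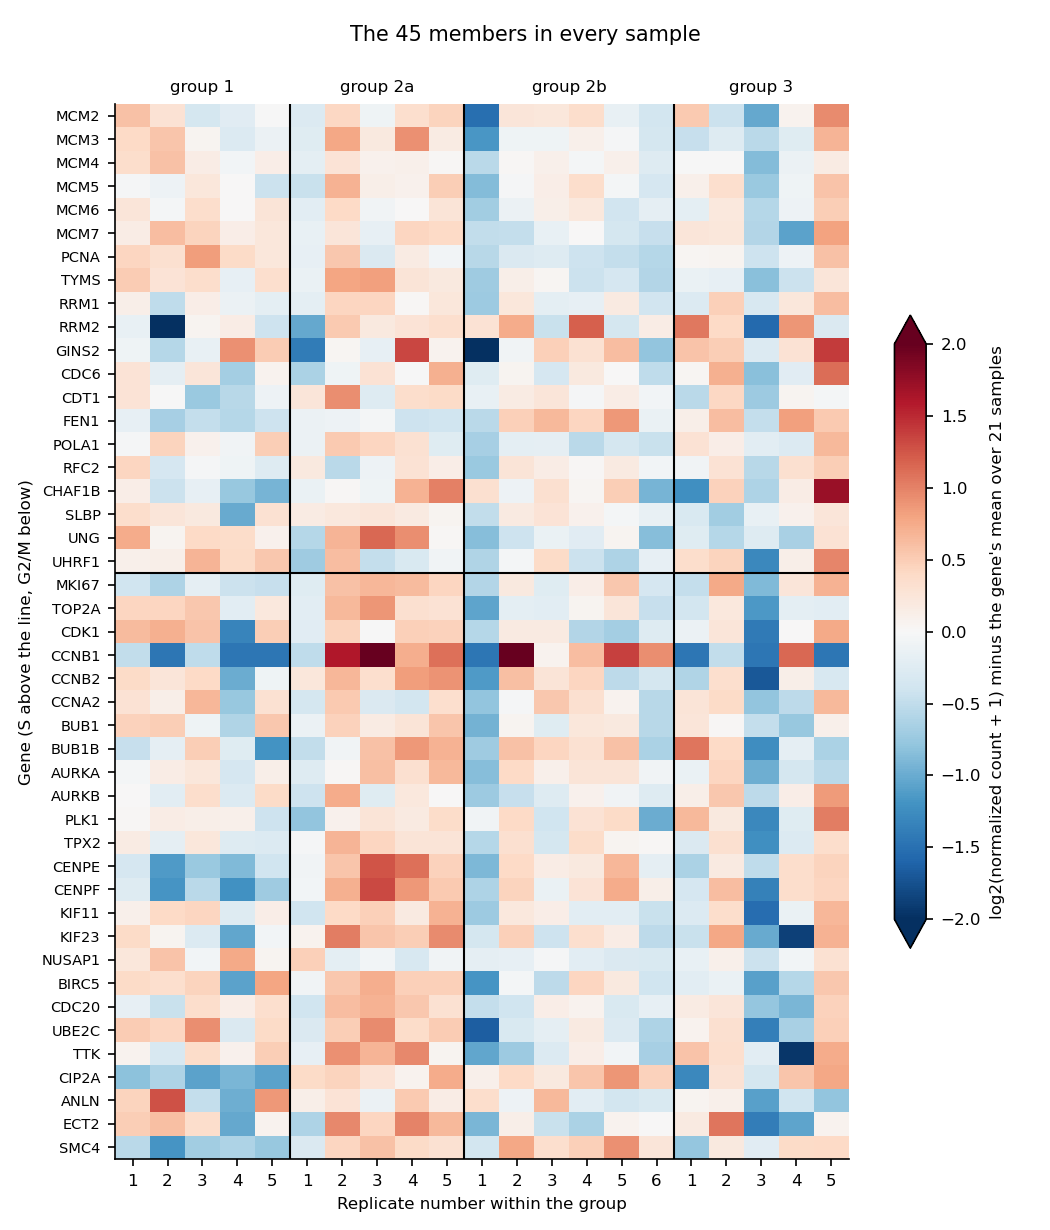
Each row is 1 of the 45 cell cycle genes (S genes above the line, G2/M genes below) and each column 1 of the 21 samples, ordered by group and replicate number. Color gives log2(normalized count + 1) minus the mean of the gene over all samples, with values past 2 in size drawn in the end colors. CIP2A, SMC4, CENPF and CENPE are pale to blue in the 5 samples of group 1 and mostly red in group 2a, and replicate 1 of group 2b and replicate 3 of group 3 are blue over most genes.

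The first comparison asked whether the tumor cell-rich areas of stage 2 differ from stage 1 tumors. Of the G2/M genes, 4 were higher in group 2a, the condensin subunit gene SMC4, the kinetochore genes CENPF and CENPE and the phosphatase inhibitor gene CIP2A, by 2.08 to 2.81 times. This direction follows the labels, which the study's text does not match for the marker means named above. No S gene passed the test. A gene passed when its log2 fold change was 1 or more in size and its p, adjusted by Benjamini-Hochberg, was no higher than 0.05, over all 11200 tested genes, from edgeR's quasi-likelihood test. The 4 genes were 4 of the 24 tested G2/M genes and 0 of the 20 S genes were called, while 0.357% of all tested genes were past the threshold and higher in group 2a, and 0.0357% were past it and lower.

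CENPF, a large protein of the outer kinetochore (chromosome 7, 12421098 to 12482469 of UU_Cfam_GSD_1.0), had 291, 495, 758, 553 and 432 normalized counts in the 5 samples of group 2a and 251, 132, 207, 129 and 185 in those of group 1. All samples of group 2a were above all of group 1, with replicate 3 of group 2a the highest. The means were 506 ± 171 (SD, n = 5) and 181 ± 51.8 (SD, n = 5), for a log2 fold change of 1.49 (adjusted p = 0.0399, SE 0.266, 95% interval 0.91 to 2.07, edgeR). CENPE, the kinesin that carries chromosomes along the spindle to the metaphase plate (chromosome 32, 15352573 to 15435369), had 110.4, 169.9, 279, 250.2 and 159.8 normalized counts in group 2a and 91.7, 52.4, 68.3, 62.2 and 87.4 in group 1. Its samples did not overlap either, and replicates 3 and 4 of group 2a were well above the other 3. The log2 fold change was 1.43 (adjusted p = 0.0414, SE 0.266, 95% interval 0.85 to 2.00, edgeR), from 72.4 ± 16.7 (SD, n = 5) to 194 ± 69.1 (SD, n = 5).

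CIP2A, an inhibitor of protein phosphatase 2A that also acts in mitosis (chromosome 33, 14322610 to 14357176), had 104, 108, 95.5, 83.03 and 134 normalized counts in group 2a against 44.4, 51.5, 37.3, 41.7 and 37.1 in group 1. The samples of each group lay close together and the groups were far apart. The mean rose from 42.4 ± 5.92 (SD, n = 5) to 105 ± 18.7 (SD, n = 5), for a log2 fold change of 1.31 (adjusted p = 0.0334, SE 0.198, 95% interval 0.88 to 1.74, edgeR). CIP2A overlaps DZIP3 in the annotation, and DZIP3 itself had a log2 fold change of 0.25 (adjusted p = 0.497, edgeR). SMC4, an ATPase subunit of condensin, which compacts mitotic chromosomes (chromosome 34, 26642712 to 26681816), had 402, 659, 732, 639.7 and 602 normalized counts in group 2a and 336, 216, 301, 319 and 291 in group 1. Replicate 1 of group 2a was the lowest of its group and still above every sample of group 1. The log2 fold change was 1.06 (adjusted p = 0.0348, SE 0.183, 95% interval 0.66 to 1.46, edgeR), with means of 607 ± 124 (SD, n = 5) and 293 ± 46.1 (SD, n = 5).

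MKI67 encodes the Ki-67 protein, the antigen most used to score proliferation in tissue (chromosome 28, 37271417 to 37300625). It had 219, 392, 414, 403 and 352 normalized counts in group 2a and 197, 168, 229, 193 and 188 in group 1. Replicate 1 of group 2a fell within the range of group 1, and the other 4 were above it. With 356 ± 80.2 (SD, n = 5) against 195 ± 21.8 (SD, n = 5), the log2 fold change of 0.87 was below the fold threshold and its adjusted p above 0.05 (adjusted p = 0.0512, SE 0.184, 95% interval 0.47 to 1.28, edgeR). In the alternative fits that kept every sample, the log2 fold change of MKI67 was 0.84 to 0.97, and its adjusted p fell on both sides of 0.05. KIF23, a kinesin of the central spindle, had the next lowest p, with a log2 fold change of 0.79 (adjusted p = 0.176, SE 0.285, edgeR).

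CDK1 and TOP2A did not pass the test, and CCNB1 could not be tested. CDK1, the mitotic cyclin-dependent kinase (chromosome 4, 13555896 to 13576243), had 76.1, 122, 88.9, 125 and 124 normalized counts in group 2a and 139.8, 148, 134, 35.4 and 127 in group 1. All 5 samples of group 2a were below 4 of the 5 of group 1, and the overlap rested on replicate 4 of group 1, which was far below the others. The log2 fold change was −0.12 (adjusted p = 0.885, SE 0.330, 95% interval −0.84 to 0.60, edgeR). It was −0.35 without replicate 4 of group 1, and above 0 with limma or with DV200 as a covariate. TOP2A, the topoisomerase that untangles sister chromatids (chromosome 9, 22157897 to 22187909), had 563, 1017, 1194, 815 and 798 normalized counts in group 2a and 874, 878, 950.0, 564 and 751 in group 1, with overlapping samples and a log2 fold change of 0.13 (adjusted p = 0.801, SE 0.214, 95% interval −0.33 to 0.60, edgeR). CCNB1, the cyclin B1 partner of CDK1 (chromosome 2, 53489618 to 53497458), was above 3 counts in 7 of the 21 samples, never above 13 counts, and at 0 in 7 samples. Its normalized counts were 0.945, 0, 0.911, 0 and 0 in group 1 and 0.928, 7.29, 14.4, 3.51 and 4.84 in group 2a, so that 4 of 5 samples of group 2a were above all of group 1, at values near the smallest that this depth can show.

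**Figure D2:**
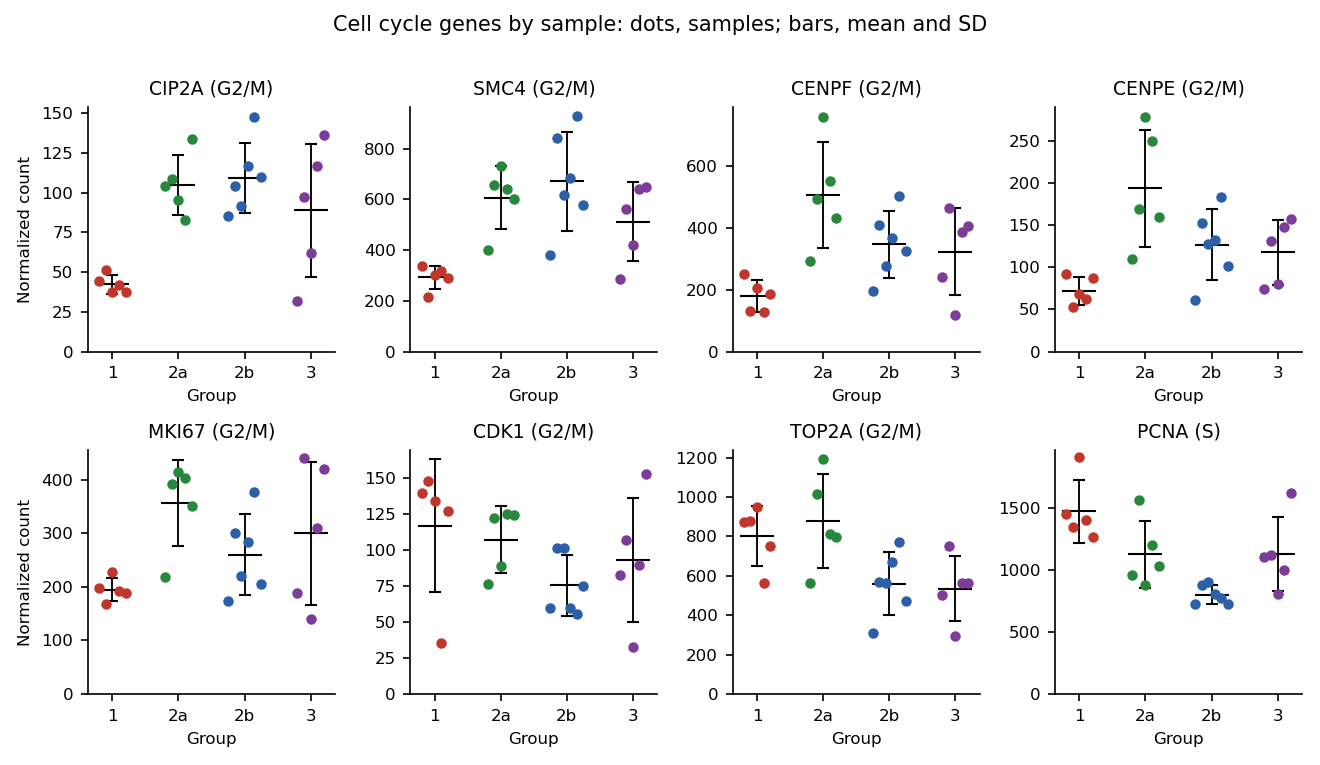
Normalized counts of 7 G2/M genes and of PCNA (vertical axes, from 0) in groups 1, 2a, 2b and 3 (horizontal axes). Each dot is 1 sample and the black marks give the mean and SD (n = 5, or 6 in group 2b). For CIP2A, SMC4, CENPF and CENPE, the 5 samples of group 2a sit above the 5 of group 1, while for CDK1 and TOP2A the groups overlap.

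Among the S genes, none had an unadjusted p under 0.05 in group 2a against group 1, beside 17.9% of all tested genes. The lowest p was that of CHAF1B, a subunit of the factor that assembles histones on new DNA (chromosome 31, 31273564 to 31294221), with 13.9, 15.6, 14.4, 25.7 and 31.96 normalized counts in group 2a and 17.01, 11.2, 13.7, 8.66 and 7.65 in group 1 (log2 fold change 0.80, adjusted p = 0.305, SE 0.388, edgeR). PCNA, the sliding clamp of the replication fork (chromosome 24, 16929896 to 16937077), had 959, 1566, 884, 1204 and 1032 normalized counts in group 2a and 1457, 1348, 1913, 1405 and 1266 in group 1. Here 4 of the 5 samples of group 2a were below all of group 1, and replicate 2 was within its range. The log2 fold change was −0.38 (adjusted p = 0.31, SE 0.186, 95% interval −0.79 to 0.02, edgeR). UHRF1, which guides the copying of DNA methylation (chromosome 20, 55253102 to 55285205), was placed alike, with 71.4, 180.3, 84.4, 94.7 and 112 normalized counts in group 2a, 126, 128, 189, 154 and 170.4 in group 1 and a log2 fold change of −0.49 (adjusted p = 0.329, SE 0.248, edgeR). MCM2, a subunit of the replicative helicase (chromosome 20, 1712467 to 1733169), had 95.6, 155, 109, 147 and 158 against 174, 141, 91.1, 99.2 and 115. These values overlapped fully, with a log2 fold change of 0.10 (adjusted p = 0.852, SE 0.227, 95% interval −0.39 to 0.60, edgeR).

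As a group, the 24 tested G2/M genes had a median log2 fold change of 0.31 (−0.35 to 1.49) and the 20 S genes one of 0.12 (−0.49 to 0.80), beside −0.02 for all tested genes. An unadjusted p under 0.05 was found for 6 G2/M genes, all higher in group 2a, beside 9.54% of all tested genes in that direction. The samples did not overlap for 4 of them, the same 4 genes past the threshold, beside 3.51% of all tested genes. NUSAP1, a microtubule-bundling protein, was the G2/M gene with the lowest log2 fold change (−0.35, adjusted p = 0.391, SE 0.201, edgeR). The values between were those of the cyclins CCNB2 (0.55) and CCNA2 (−0.17), the mitotic kinases AURKA (0.28), AURKB (0.04) and PLK1 (0.06) and the APC/C factors CDC20 (0.34) and UBE2C (0.02), all with an adjusted p of at least 0.305 in edgeR, and the signs for CCNA2, AURKB, PLK1 and UBE2C turned in at least 1 alternative or with 1 sample left out.

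Further genes of the same processes, listed apart from the 45 and also chosen with earlier results known, were placed as follows. Of 66 tested mitosis genes, 18 had an unadjusted p under 0.05 and were higher in group 2a and 1 lower, beside 9.54% of all tested genes higher and 17.9% in either direction, with a median log2 fold change of 0.43, and 0 passed the threshold. The lowest p were those of ASPM, a spindle pole protein (log2 fold change 1.77, adjusted p = 0.069, SE 0.412), and DIAPH3, a formin (log2 fold change 1.74, adjusted p = 0.0733, SE 0.413, both, edgeR). Of 51 replication genes, 7 were higher and 1 lower at an unadjusted p under 0.05, beside the same shares, with a median of 0.17. CLSPN, an adaptor of the replication checkpoint (1.12, adjusted p = 0.106, SE 0.321, edgeR), and DBF4, the activator of the CDC7 kinase (0.94, adjusted p = 0.093, SE 0.254, edgeR), came first. Of 37 tested cell cycle regulators, 4 were higher and 2 lower, again beside these shares, among them CCND1, the cyclin D1 of G1 (1.04, adjusted p = 0.0738, SE 0.247, edgeR), and SKP2, a ubiquitin ligase subunit for the inhibitor p27 (−0.99, adjusted p = 0.123, SE 0.303, edgeR).

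The log2 fold changes of the 4 genes stayed between 1.04 (SMC4) and 1.61 (CENPE) in the alternative fits that kept every sample and between 0.97 (SMC4) and 1.66 (CENPF) when single samples were left out, and all 4 were also called by DESeq2 and limma. Their adjusted p was near the limit of 0.05. With DV200 as a covariate, 0 of the 45 genes and 0 of all genes passed, with 8 and 976 at an unadjusted p under 0.05, and the part of RNA quality in the result was not tested beyond this fit. Without replicate 2, 3 or 5 of group 1, or replicate 2, 3, 4 or 5 of group 2a, 0 of all tested genes passed. Without replicate 1 or 4 of group 1, 3 of the 4 passed (not CENPE), and without replicate 1 of group 2a, 5 passed, MKI67 being the fifth. Keratinocyte markers moved with the comparison, all 13 tested of 15 having a log2 fold change below 0 (median −2.04; summed levels 287 to 3525 normalized counts in group 2a and 1100.2 to 15027 in group 1, with no marker at 0 throughout a group). The mean log2 level of the 8 histiocyte markers was higher in all 5 samples of group 2a than in all of group 1, by 0.64 (5 of 7 tested above 0; summed levels 4962 to 6301 and 4449 to 5051), and that of the 6 mast cell markers was lower in 4 of 5 (difference −1.07, 3 of 3 tested below 0; summed levels 15.6 to 151 and 29.1 to 153). The part of these markers in the result was not tested.

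**Figure D3:**
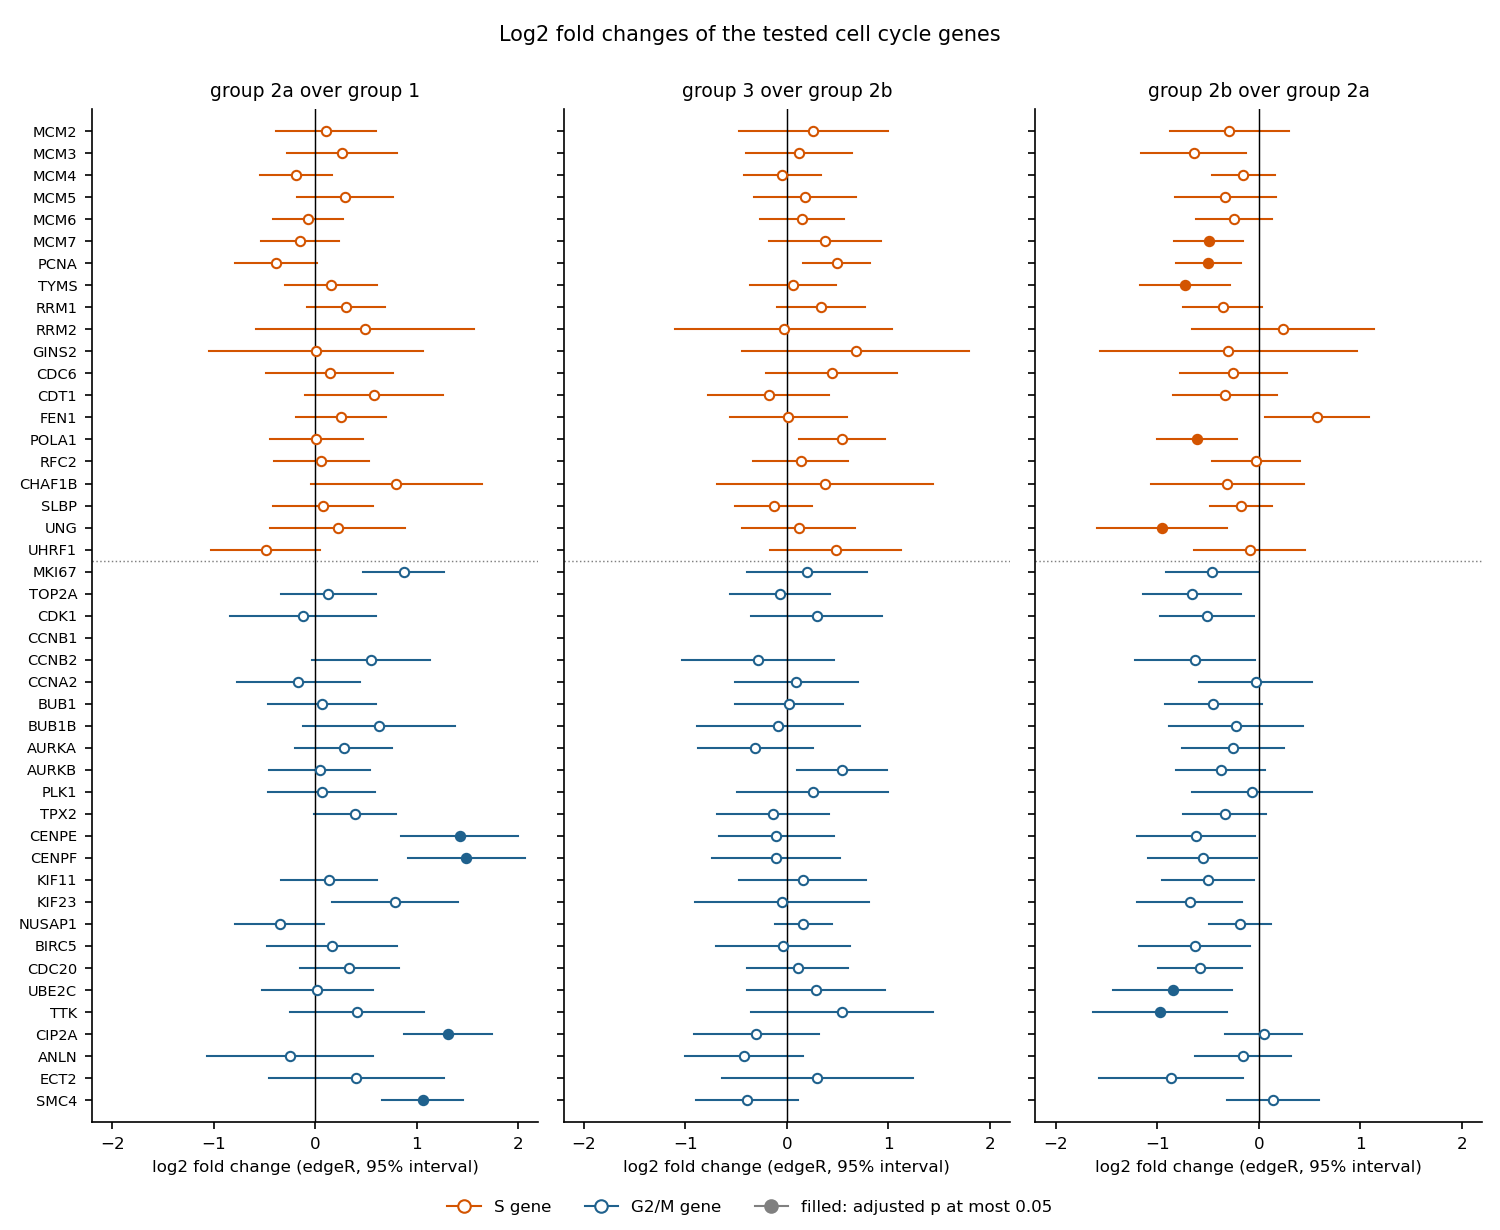
Log2 fold changes (horizontal axes) with 95% intervals from edgeR for the 44 tested genes (rows, S genes above the dotted line and G2/M genes below), in group 2a over group 1, group 3 over group 2b and group 2b over group 2a. Filled points have an adjusted p of at most 0.05. There are 4 filled G2/M points in the left panel, none in the middle panel, and 5 S and 2 G2/M points, all below 0, in the right panel.

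The second comparison asked whether lymphocyte-rich areas differ between stages 3 and 2. No cell cycle gene passed the threshold in group 3 against group 2b in edgeR, DESeq2 or limma (smallest adjusted p = 0.226 in edgeR), while 0.0428% of the 11685 tested genes did. Only PCNA, POLA1 and AURKB had an unadjusted p under 0.05 in edgeR, all higher in group 3, and 3 of 44 is to be read beside the 7.03% of all tested genes in that direction.

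PCNA had 1104, 1123, 811, 999 and 1624 normalized counts in the 5 samples of group 3 and between 724 and 904, with a median of 791 in group 2b. In group 3, 4 of 5 samples were above all 6 of group 2b, and replicate 3 was within their range. The means were 1132 ± 302 (SD, n = 5) and 803 ± 76.01 (SD, n = 6), for a log2 fold change of 0.49 (adjusted p = 0.226, SE 0.155, 95% interval 0.16 to 0.82, edgeR). POLA1, the catalytic subunit of the polymerase that starts each new strand (chromosome X, 20311257 to 20621342), had 104, 93.4, 73.7, 70.5 and 134 normalized counts in group 3 and between 53.2 and 75.4, with a median of 64.4 in group 2b. Its samples overlapped, 3 of group 3 being above all of group 2b, with a log2 fold change of 0.54 (adjusted p = 0.27, SE 0.197, 95% interval 0.12 to 0.96, edgeR). AURKB, the kinase of the chromosomal passenger complex (chromosome 5, 33219643 to 33234968), had 355, 476, 229, 361 and 593 normalized counts in group 3 and between 199 and 350.1, with a median of 275 in group 2b. Here too 4 of 5 samples were above all of group 2b and replicate 3 was not, with a log2 fold change of 0.55 (adjusted p = 0.289, SE 0.209, 95% interval 0.10 to 0.99, edgeR).

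Lower p-values than those of the remaining genes of their phase were also found for RRM1, SMC4 and ANLN, without passing the test. RRM1, the large subunit of ribonucleotide reductase (chromosome 21, 26714390 to 26749830), had 254, 429, 245, 361 and 472 normalized counts in group 3 and between 185 and 361, with a median of 272 in group 2b (log2 fold change 0.33, adjusted p = 0.516, SE 0.204, edgeR). SMC4 had 286, 564, 420.0, 642 and 649 in group 3 and between 380.0 and 927, with a median of 652 in group 2b (log2 fold change −0.39, adjusted p = 0.502, SE 0.235, edgeR). ANLN, an actin-binding protein of the cleavage furrow (chromosome 14, 47905285 to 47954922), had 64.95, 66.97, 29.1, 47.4 and 35.6 in group 3 and between 48.2 and 98.7, with a median of 56.3 in group 2b (log2 fold change −0.42, adjusted p = 0.541, SE 0.272, edgeR). All 3 overlapped between the groups.

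The proliferation markers spread over a wide range within group 3. MKI67 had 188, 440.5, 141, 309 and 419.9 normalized counts there and between 174 and 378, with a median of 252 in group 2b, so that group 3 held values above and below all of group 2b (log2 fold change 0.20, adjusted p = 0.81, SE 0.276, 95% interval −0.39 to 0.79, edgeR). TOP2A had 502, 749.9, 293, 565 and 564 in group 3 and between 311 and 771, with a median of 566 in group 2b (log2 fold change −0.07, adjusted p = 0.929, SE 0.232, 95% interval −0.56 to 0.42, edgeR). CDK1 had 82.9, 107, 32.98, 89.7 and 153 against between 55.3 and 102, with a median of 67.4 (log2 fold change 0.29, adjusted p = 0.724, SE 0.303, 95% interval −0.35 to 0.94, edgeR). In each of the 3, replicate 3 of group 3 was the lowest sample of both groups. MCM2 had 167, 85.8, 56.3, 122 and 225 normalized counts in group 3 and between 40.1 and 147, with a median of 120.2 in group 2b, for a log2 fold change of 0.26 (adjusted p = 0.802, SE 0.344, 95% interval −0.48 to 0.99, edgeR). CCNB1 had 0, 0.943, 0, 5.04 and 0 in group 3 and between 0 and 10.5, with a median of 3.70 in group 2b, again near the limit of detection.

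The 20 S genes had a median log2 fold change of 0.16 and the 24 G2/M genes one of −0.01, beside 0.01 for all tested genes. The direction was above 0 for 16 S genes and for 12 G2/M genes, beside 50.6% of all tested genes. The number with an unadjusted p under 0.05 rose from 3 to 7 without replicate 3 of group 3 and to 5 without its replicate 4, and fell to 1 without its replicate 5, and it was 4 without replicate 1 of group 2b. It was 1 when the 4 pooled samples of group 2b were left out, which leaves 2 samples in that group. B cell and plasma cell markers moved with this comparison, all 8 tested of 10 having a log2 fold change below 0 (median −1.38; summed levels 176 to 1598 normalized counts in group 3 and 1126 to 1833 in group 2b, with no marker at 0 throughout a group). All 12 tested of 15 keratinocyte markers were above 0 (median 1.84; summed levels 812 to 8143 and 212 to 2625), and the part of either in the result was not tested.

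Outside the 45 genes, 0 of the 51 replication genes, 68 mitosis genes and 37 tested regulators passed the threshold in group 3 against group 2b in edgeR, with 5, 8 and 3 at an unadjusted p under 0.05, beside 13.1% of all tested genes. ATR, the kinase that senses stalled replication, was lower in all 5 samples of group 3 than in every sample of group 2b (log2 fold change −1.39, adjusted p = 0.128, SE 0.342, edgeR). Of all 11685 tested genes, 108 were likewise lower in group 3 without overlap. E2F1, the factor that drives transcription of S phase genes, had a log2 fold change of 1.01 (adjusted p = 0.201, SE 0.304, edgeR). The others with the lowest p of their lists were TROAP (0.76) and MAD1L1 (0.64), genes of the spindle and its checkpoint, RNASEH2A (0.89), a subunit of the enzyme that removes RNA from DNA, and HELLS (0.54), a chromatin remodeler, each with an adjusted p of at least 0.172.

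Lymphocyte-rich and tumor cell-rich areas of stage 2 were compared next, a comparison that shares its samples with both others. In the lymphocyte-rich areas, 7 cell cycle genes were lower at an adjusted p no higher than 0.05, without reaching the fold threshold. By sign alone, 40 of the 44 tested genes had a log2 fold change below 0 in group 2b against group 2a, beside 51.2% of all tested genes. None passed the fold threshold, which 3.57% of the 11545 tested genes passed downward and 5.98% upward. The 7 lower genes, beside 7.64% of all tested genes, were 5 S genes (TYMS, POLA1, PCNA, UNG and MCM7) and 2 G2/M genes (TTK and UBE2C). An unadjusted p under 0.05 was found for 19 lower genes, beside 14.9% of all tested genes, and for 1 higher gene, beside 15.1%, the flap nuclease gene FEN1 (log2 fold change 0.57, adjusted p = 0.124, SE 0.239, edgeR).

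TYMS, which makes the thymidylate for DNA (chromosome 7, 67544017 to 67553794), had between 138 and 245, with a median of 173, normalized counts in group 2b and 206, 389.7, 399.9, 270.1 and 259.5 in group 2a. Of the 6 samples of group 2b, 4 were below all of group 2a, with a log2 fold change of −0.73 (adjusted p = 0.0259, SE 0.205, 95% interval −1.17 to −0.29, edgeR). UNG, which removes uracil from DNA (chromosome 26, 18253824 to 18265113), had between 27.8 and 53.3, with a median of 40.9, in group 2b and 34.3, 82.3, 114, 98.2 and 52.3 in group 2a. The groups overlapped through the 2 low samples of group 2a, replicates 1 and 5, and the log2 fold change was −0.95 (adjusted p = 0.0432, SE 0.299, 95% interval −1.59 to −0.31, edgeR).

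At the replication fork, PCNA fell from 1129 ± 272 (SD, n = 5) to 803 ± 76.01 (SD, n = 6) normalized counts, 5 of 6 samples of group 2b being below all of group 2a, for a log2 fold change of −0.50 (adjusted p = 0.0374, SE 0.151, 95% interval −0.82 to −0.17, edgeR). POLA1 had 78.9, 123, 116, 105 and 71.7 normalized counts in group 2a and fell by 0.61 on the log2 scale (adjusted p = 0.0371, SE 0.184, 95% interval −0.999 to −0.21, edgeR). MCM7, a helicase subunit (chromosome 6, 9438765 to 9446084), had between 153 and 217, with a median of 163, normalized counts in group 2b and 196, 257, 193, 292 and 285 in group 2a. For POLA1 and MCM7, 4 of 6 samples of group 2b were below all of group 2a, and the log2 fold change of MCM7 was −0.49 (adjusted p = 0.0481, SE 0.158, 95% interval −0.83 to −0.15, edgeR). MCM7 overlaps AP4M1 in the annotation, which had a log2 fold change of −0.36 (adjusted p = 0.635, edgeR). MCM2, another subunit of the same helicase, had a log2 fold change of −0.29 (adjusted p = 0.526, SE 0.275, 95% interval −0.88 to 0.30, edgeR).

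Among the G2/M genes, TTK, the kinase that starts the spindle checkpoint (chromosome 12, 41120015 to 41162453), had between 12.1 and 28.6, with a median of 18.7, normalized counts in group 2b and 23.2, 50.02, 42.2, 51.5 and 27.1 in group 2a. UBE2C, the ubiquitin-conjugating enzyme of the anaphase-promoting complex (chromosome 24, 33751584 to 33755488), had between 64.4 and 232, with a median of 167, in group 2b and 168, 288, 397, 265 and 291 in group 2a. The groups overlapped for TTK through replicates 1 and 5 of group 2a, and for UBE2C through replicate 1. Their log2 fold changes were −0.97 (adjusted p = 0.0448, SE 0.308, 95% interval −1.63 to −0.31, edgeR) and −0.85 (adjusted p = 0.0478, SE 0.273, 95% interval −1.43 to −0.26, edgeR). CDC20, an activator of the same complex (chromosome 15, 16904979 to 16908696), had between 168 and 256, with a median of 198, in group 2b and 177, 359.5, 379.9, 338 and 288 in group 2a, with an adjusted p just above 0.05 (log2 fold change −0.58, adjusted p = 0.0544, SE 0.193, edgeR).

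The log2 fold changes of TOP2A (−0.66, adjusted p = 0.0618), CDK1 (−0.51, adjusted p = 0.132) and MKI67 (−0.46, adjusted p = 0.161) were below 0 without passing the adjustment in edgeR. Of the genes that were higher in group 2a than in group 1, CIP2A and SMC4 had log2 fold changes near 0 here, the sign for CIP2A turning with the setting (−0.14 to 0.15 in the alternative fits). CIP2A had between 84.95 and 148, with a median of 107, normalized counts in group 2b, within the range of group 2a for 5 of 6 samples (log2 fold change 0.05, adjusted p = 0.891, SE 0.175, 95% interval −0.33 to 0.42, edgeR). SMC4 had between 380.0 and 927, with a median of 652, there (log2 fold change 0.14, adjusted p = 0.717, SE 0.212, 95% interval −0.32 to 0.59, edgeR). CENPE and CENPF had log2 fold changes of −0.62 and −0.55 (adjusted p = 0.144 and 0.152, edgeR). Whether the log2 fold changes differ between these genes was not tested.

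**Figure D4:**
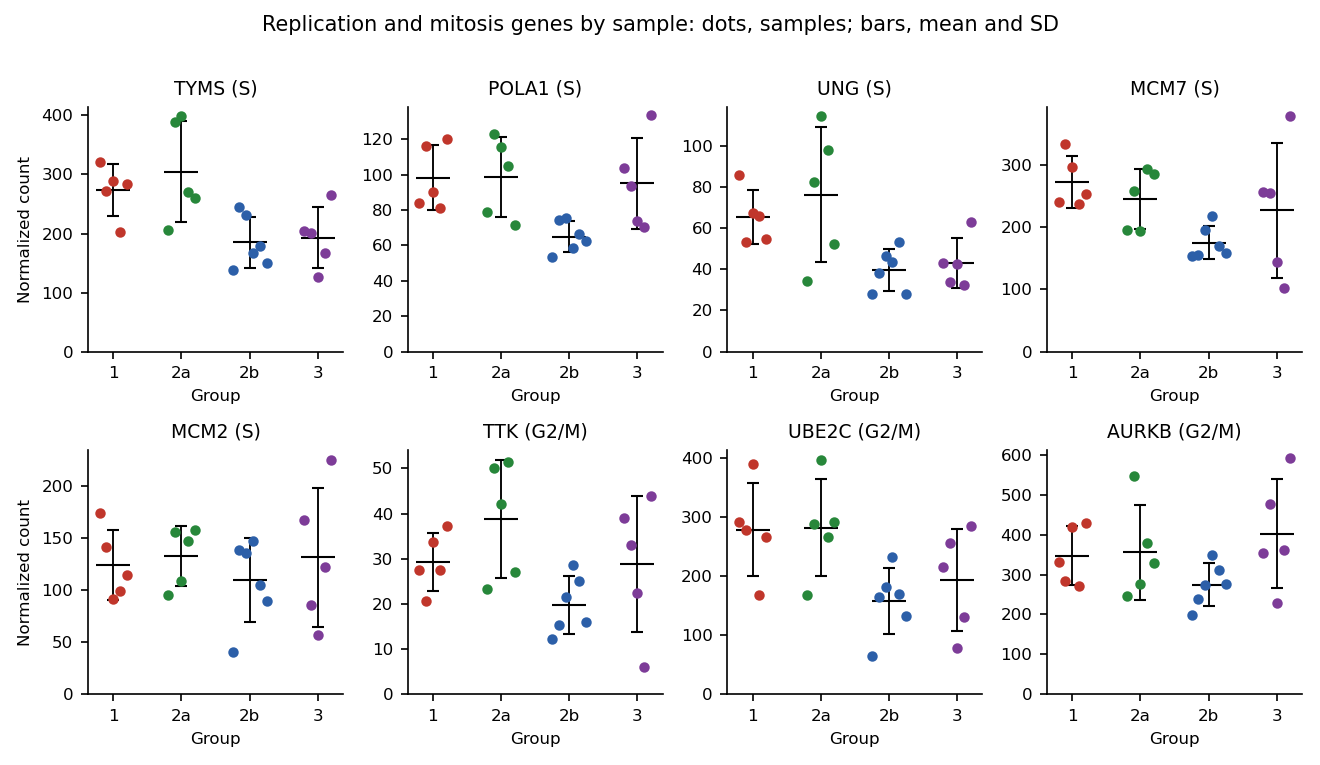
Normalized counts of 5 S genes and 3 G2/M genes (vertical axes, from 0) in groups 1, 2a, 2b and 3 (horizontal axes), with 1 dot per sample and black marks for the mean and SD (n = 5, or 6 in group 2b). For TYMS, POLA1, UNG, MCM7, TTK and UBE2C, the mean of group 2b sits below that of group 2a, and the samples of the 2 groups overlap. For AURKB, the samples of group 3 run from 229 to 593.

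The median log2 fold change in group 2b against group 2a was −0.30 for the S genes and −0.48 for the G2/M genes, beside −0.01 for all tested genes. No gene was free of overlap between the groups, beside 4.40% of all tested genes that did not overlap and were lower. Without replicate 1 of group 2a, 3 genes passed the fold threshold (ECT2, TTK and UNG), and without its replicate 5 TTK and UNG did. Without replicate 4 of group 2b, TTK passed, and without its replicate 5, UNG did. The number with an unadjusted p under 0.05 was 20 in all, 8 without the 4 pooled samples of group 2b and 12 to 23 without single samples, the lowest counts being those without replicate 4 of group 2a (12) and without its replicate 2 or replicate 6 of group 2b (13 each), and it was 14 without replicate 1 of group 2b. T cell markers (9 of 9 tested of 10 above 0, median 2.03) and B cell and plasma cell markers (9 of 9 tested of 10, median 3.98; summed levels 1126 to 1833 in group 2b and 145 to 1073 in group 2a, MS4A1 being at 0 throughout group 2a) moved with the comparison, as the choice of areas implies. Of the 8 macrophage markers, 7 had a log2 fold change above 0 (median 0.90; summed levels 4635 to 9150.3 in group 2b and 2388 to 6449 in group 2a, 2 markers past the threshold), and 11 of 12 tested keratinocyte markers were below 0 (median −0.79; summed levels 212 to 2625 and 287 to 3525). The part of these markers in the lower levels was not tested, nor was that of the RNA quality number, which separates groups 2a and 2b.

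Of the other mitosis genes, 25 were lower and 1 higher at an unadjusted p under 0.05, beside 14.9% and 15.1% of all tested genes (median −0.42, 68 tested), and NCAPH, a condensin subunit, passed the threshold (log2 fold change −1.19, adjusted p = 0.00113, SE 0.198, edgeR). All 6 samples of group 2b were below all of group 2a for NCAPH, as for ASF1B, a histone chaperone of replication (log2 fold change −0.96, adjusted p = 0.00261, SE 0.184, edgeR). KNL1 of the kinetochore (−0.88, adjusted p = 0.0242, SE 0.246, edgeR) and POLE, a polymerase of the leading strand (−0.82, adjusted p = 0.0217, SE 0.223, edgeR), were lower as well. Of the 51 replication genes, 11 were lower and 2 higher at an unadjusted p under 0.05, to be read beside the same 14.9% and 15.1% (median −0.16).

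Of the regulators, CCND1, the cyclin D1 of G1, had between 242 and 721, with a median of 588, normalized counts in group 2b, 1936, 1596, 1762, 2777 and 1384 in group 2a, 1254, 510.2, 1058, 930.5 and 869.7 in group 1 and 194, 361, 823, 566 and 531 in group 3. All samples of group 2b were below all of group 2a, with a log2 fold change of −1.77 (adjusted p = 0.000395, SE 0.249, 95% interval −2.31 to −1.24, edgeR). CDKN2A (−1.31, adjusted p = 0.00437, SE 0.269), CDKN3 (−1.15, adjusted p = 0.0204, SE 0.310) and CDKN2C (−0.98, adjusted p = 0.00154, SE 0.171), 3 genes of inhibitors of cyclin-dependent kinases, were also lower in group 2b by edgeR, CDKN2C without reaching the fold threshold. Of the 37 tested regulators, 9 were lower and 1 higher at an unadjusted p under 0.05, beside the same 14.9% and 15.1%, with a median of −0.06.

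The 2 phases were then set against each other within each sample, which removes differences in depth. The S score and the G2/M score are the means of log2(normalized count + 1) over the 20 S and the 25 G2/M genes. The G2/M score includes CCNB1, whose counts were near the limit of detection. CCNB1 was higher in 4 of 5 samples of group 2a than in all of group 1. Its mean normalized count was 1.20 in group 3 and 4.30 in group 2b. No score without CCNB1 is given. The S score minus the G2/M score was 0.09 ± 0.182 (SD, n = 5) for the samples of group 1, −0.28 ± 0.127 (SD, n = 5) for the samples of group 2a, −0.14 ± 0.107 (SD, n = 6) for the samples of group 2b and 0.14 ± 0.206 (SD, n = 5) for the samples of group 3. All 5 samples of group 2a (−0.49 to −0.17) were below all 5 of group 1 (−0.06 to 0.40), and 4 of 5 samples of group 3 were above all 6 of group 2b, replicate 2 of group 3 being the exception. The S score differed by 0.10 between groups 2a and 1 and the G2/M score by 0.48, and no p is given for scores over chosen genes. The difference between groups 2a and 1 in S minus G2/M score was −0.38 with means over genes and −0.18 with medians, −0.30 without replicate 4 of group 1 and −0.41 without replicate 1 of group 2a. Between groups 3 and 2b it was 0.28, against 0.24 without replicate 3 or replicate 5 of group 3 and 0.29 without replicate 1 of group 2b.

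Of the reads on the 45 genes, the S genes took 47.1% ± 1.16 (SD, n = 5) in the samples of group 1, 40.8% ± 2.98 (SD, n = 5) in those of group 2a, 40.8% ± 2.25 (SD, n = 6) in those of group 2b and 45.1% ± 3.31 (SD, n = 5) in those of group 3. Groups 1 and 2a did not overlap in this share (45.9% to 48.7% against 35.9% to 43.95%), whereas groups 2a and 2b covered nearly the same range. Counting error was small beside this, the 95% Wilson interval of a sample being 1.88 to 2.69 percentage points wide. Without PCNA the shares were 36.5% ± 0.964 (SD, n = 5) in the samples of group 1 and 33.03% ± 1.80 (SD, n = 5) in those of group 2a, still without overlap. The G2/M genes include CENPF, CENPE, CIP2A and SMC4, which were past the threshold in group 2a. No share or score without them is given, so their part in these differences was not tested. The other replication and mitosis genes, none of them among the 45, gave a difference of scores of 0.10 ± 0.121 (SD, n = 5) for the samples of group 1, −0.12 ± 0.0623 (SD, n = 5) for the samples of group 2a, 0.06 ± 0.0995 (SD, n = 6) for the samples of group 2b and 0.19 ± 0.228 (SD, n = 5) for the samples of group 3. Groups 1 and 2a were here separated by a narrow gap, with −0.02 as the lowest value of group 1 and −0.03 as the highest of group 2a. These lists too were chosen with earlier results known and come from the same samples, so they are no independent repeat.

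**Figure D5:**
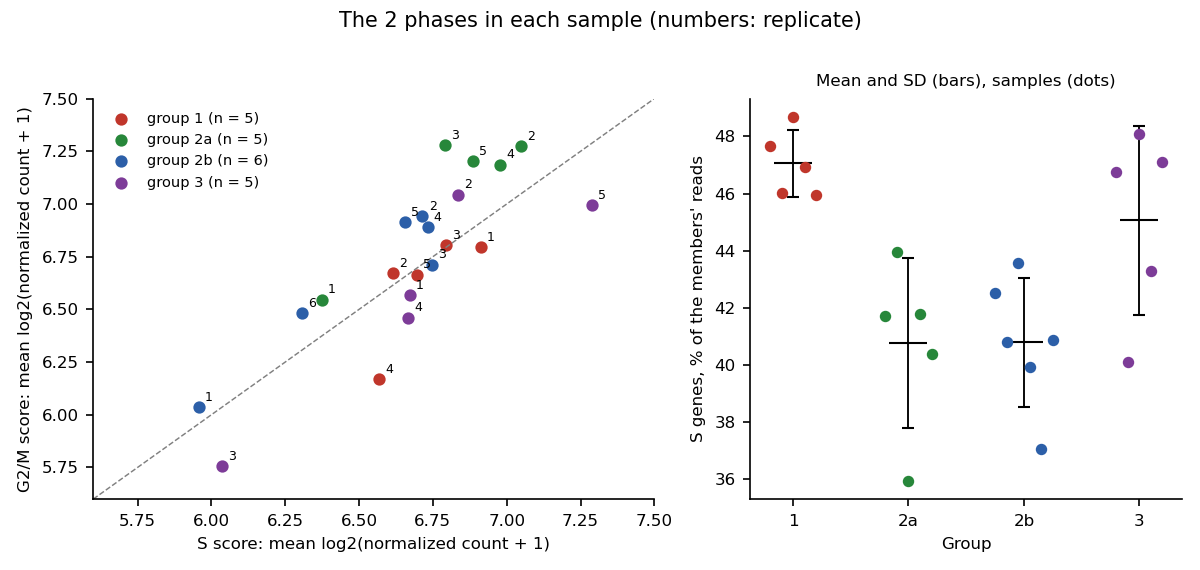
Left, the S score (horizontal axis) and the G2/M score (vertical axis) of the 21 samples, both as mean log2(normalized count + 1), with the replicate number beside each point and a dashed line where both are equal. Right, the percentage of the reads on the 45 genes that fell on S genes, by group, with the mean and SD in black (the vertical axis does not start at 0). All samples of group 2a lie above the dashed line, and their S shares lie below those of group 1.

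Within groups, the 2 phases moved together. After the group means were taken out, Pearson's r between the S and the G2/M score was 0.91 (Spearman's rho 0.79) over the 21 samples, and 0.82 without the 2 samples farthest from the median S score. This is a description of libraries that share their depth and RNA quality between both scores. In the same way, r with DV200 was −0.50 for the S score and −0.41 for the G2/M score, and r with the total count was −0.43 and −0.53. The DV200 of replicate 5 of group 3 differs between its label, used here, and the sample list of the study, and without this sample r with DV200 was −0.45 and −0.37 over 20 samples. For single genes, the correlation with the mean of the other genes of the same phase had a median of 0.69 among the S genes and 0.71 among the G2/M genes, and with the mean of the other phase one of 0.63 and 0.67. For 10 of 20 S genes and 16 of 25 G2/M genes, the correlation with the own phase was the higher one.

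The genes that followed their phase most closely were UBE2C (0.92), TOP2A (0.91) and KIF11 (0.89), a motor of the bipolar spindle, among the G2/M genes, and MCM5 (0.88), MCM6 (0.86) and MCM4 (0.83), subunits of the helicase, among the S genes. NUSAP1 (−0.07), ANLN (0.18) and CIP2A (0.30) followed the G2/M genes least, and RRM2 (0.28), the small subunit of ribonucleotide reductase, and SLBP (0.35), which binds histone mRNA, the S genes. NUSAP1 overlaps 2 other genes of the table, and RRM2 had a median of 12 reads per sample. The 23 genes whose values were not given sample by sample lay between −0.35 and 0.79 in group 2a against group 1, between −0.31 and 0.68 in group 3 against group 2b and between −0.87 and 0.57 in group 2b against group 2a on the log2 scale, with a smallest adjusted p of 0.176, 0.566 and 0.0698 in edgeR. They are the helicase and origin genes MCM3, MCM4, MCM5, MCM6, GINS2, CDC6 and CDT1, the fork genes FEN1 and RFC2, RRM2 and SLBP, the cyclins CCNB2 and CCNA2, the kinases AURKA and PLK1, the checkpoint genes BUB1 and BUB1B, the spindle genes TPX2, KIF11, KIF23 and NUSAP1, BIRC5, which encodes survivin, and ECT2, which activates RhoA in cytokinesis.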

How the data were processed

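RNA-seq counts of transcript 3′ ends in 21 samples were used. Per the labels, reads were processed with cutadapt, STAR, featureCounts and DESeq2 (versions not given in the sources used here) on UU_Cfam_GSD_1.0, and how strand and multi-mapping reads were handled is not given in the sources used here, so overlapping genes may share reads. The authors deposited raw counts per gene and normalized counts, a signal made by dividing each count by 1 size factor per sample (0.855 to 1.27). Their fold changes and p-values for the group comparisons were not used. The 45 genes and all other lists were chosen with earlier results of these data known. Genes with at least 10 counts in at least 5 samples of a fit were tested in edgeR 4.0.16 (TMM scaling, quasi-likelihood test, two-sided, R 4.3.3), with the groups compared and no covariate, and p-values were adjusted by Benjamini-Hochberg over all tested genes. Values by sample (for group 2b the lowest, median and highest) were given, in the groups of the comparison that named them, for genes with an adjusted p of at most 0.05 in any comparison, the 3 of each phase with the lowest p in each, and PCNA, MCM2, MKI67, TOP2A, CDK1 and CCNB1. Genes of the other lists were named if past the threshold or among the 2 of their list with the lowest p. Alternatives were DESeq2 1.42.0, limma 3.58.1, other scalings and filters, DV200, other sample sets and single samples left out. On simulated counts for group 2a against group 1, edgeR at an adjusted p of at most 0.05 found 146 of 200 genes changed 4-fold, beside 10 unchanged genes. It found 12 of 200 genes changed 2-fold, beside 4 unchanged genes. Intervals of shares are Wilson intervals, computed with Python 3.11.15, and cover counting error only.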

Additional observations from a re-analysis of the deposited data

Results flagged for a closer look

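Of 100 sets of values of 1 gene or score in 1 group that were examined for a sample far from the others, 4 held one, where chance gives about 1 in 20. In group 2a, replicate 1 had 219 normalized counts of MKI67, against 352 to 414 in the other 4 samples, and a G2/M score of 6.55, against 7.19 to 7.28. In group 1, replicate 4 had 35.4 normalized counts of CDK1, against 127 to 148 in the other 4, and a G2/M score of 6.17, against 6.66 to 6.81.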

How the results depend on the processing

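The 4 calls in group 2a against group 1 became 0 with DV200 as a covariate and 0 to 5 without single samples, and the genes at an unadjusted p under 0.05 there were 6 to 13 without single samples. The same replicate numbers belong to different dogs and did not pair the samples (correlations of deviations −0.30 to 0.12 in that comparison, 1 of 5 over 0.1 in each comparison), and with the replicate number as a block the 4 calls became 0. In group 3 against group 2b, 1 to 7 genes had an unadjusted p under 0.05 without single samples and 1 without the pooled samples. In group 2b against group 2a, these were 12 to 23 without single samples, 8 without the pooled samples and 13 with all 4 groups in 1 fit, and 0 to 3 genes passed the threshold without single samples. The S minus G2/M score in group 2a against group 1 was −0.18 with medians over genes in place of means, and the S share differed by −3.52 percentage points without PCNA, an alternative chosen after seeing the data, in place of −6.29. The log2 fold change took the other sign in at least 1 alternative, or with 1 sample left out, for 15 of 44 tested genes in group 2a against group 1, 22 in group 3 against group 2b and 7 in group 2b against group 2a, each with an adjusted p of at least 0.719 in edgeR. Among the genes described by sample in their comparison, these included CDK1 in group 2a against group 1 (0.0056 with limma, 0.24 with DV200), MCM2 in group 3 against group 2b (−0.17 with DV200, and −0.0223 to 0.455 without single samples, below 0 without replicate 5 of group 3) and TOP2A there (0.28 without the pooled samples, and −0.222 to 0.0901 without single samples, above 0 without replicate 5 of group 2b or replicate 3 of group 3). The DV200 fit of group 3 against group 2b rests on the label of replicate 5 of group 3, which differs from the sample list of the study. The causes were not tested. Counts of 3 or fewer made up 17 of the 945 values, and CCNB1 could not be tested at this depth.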
